A study of Rattus norvegicus with 14 samples.

Results

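The genes described here were the microRNA precursor genes of the rat perirhinal cortex, the cortical area on which object recognition memory depends. They were taken by name, as every gene whose symbol begins with Mir or rno-mir and a number, or with let-7, in the 3 tables the study deposited. This gave 76 genes, each with its own symbol, out of 17905 genes listed in at least 1 table. The samples were caudal perirhinal cortex of male Lister Hooded rats of 3 groups, all of them food restricted. One group (5 rats), here the new-object group, explored objects it had not met before in the final session in the bow-tie maze, group Familiar (5 rats) explored objects it had met throughout training, and group Control (4 rats) was handled without training or testing. Tissue of the 2 trained groups was taken 1 h after the session, and that of group Control by the same protocol without the session. The sequenced samples had been selected partly on RNA quality and, in the trained groups, on behaviour in the session. Libraries for the Ion Proton sequencer were made from total RNA after removal of ribosomal RNA.

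Each table belongs to 1 pair of groups, and for each gene it holds an identifier, a symbol and the results of the authors' own test of that pair. The tables hold 0 columns of values per rat. The authors' fold changes and p values were not used, so no level, difference between groups, error or depth can be given for any precursor, and no test was run. What the names alone carry is which precursors each table lists. The authors excluded genes with a low mean count in any group from their further analysis. How far the listing follows that exclusion is not known, as set out below.

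A microRNA is made from a hairpin in a longer primary transcript. Drosha and its partner Dgcr8 cut the hairpin out in the nucleus, Xpo5 carries it to the cytoplasm, and Dicer1 cuts it to a short duplex. One strand is then held by an Argonaute protein and pairs with target messenger RNAs, mainly through the seed, the bases from position 2 to position 8 counted from the 5′ end. No small RNA preparation is described for these libraries. Whether reads at these genes came from the hairpin, its primary transcript or an intron around it is not given by the tables.

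Of all 17905 genes, 94.2% were listed in all 3 tables, and genes of microRNA processing and cell type markers were listed about as often. Of the 16 genes of the processing and effector machinery that were looked up, 15 were listed in all 3 tables, the exception being Lin28a, whose product blocks the maturation of let-7. The 15 included Drosha, Dgcr8, Xpo5, Dicer1, all 4 Argonaute genes from Ago1 to Ago4 and the Argonaute partners Tnrc6a, Tnrc6b and Tnrc6c. Lin28b, the relative of Lin28a, was among them. Of 12 marker genes for the cells of the cortex 11 were listed in every table, including Slc17a7 of excitatory neurons, Gad1 of inhibitory neurons, Gfap of astrocytes, Mbp of oligodendrocytes and Cx3cr1 of microglia. The endothelial marker Cldn5 was not among the names. A listing says nothing of how abundant these genes were.

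RefSeq miRNA genes of the rat assembly GRCr8 were matched to 74 of the 76 precursors, 62 by symbol and 12 by a synonym. Mir1843 and Mir3068 were matched as synonyms of entries that RefSeq classes as miRNA under the symbols Scarna3 and Snora58, and the mature sequences of these entries carry the microRNA names. A mature sequence was found for 67 of them. These had 103 different mature sequences with 102 different seeds, or 108 where a sequence is counted once for each precursor that gives it. Among these mature sequences 5 seeds were shared by 2 or more precursors. The count leaves out 9 precursors without a sequence in the table, among them Mir124-1 and Mir124-2, and Mir125b1, Mir219-1, Mir99a, Mir3064 and Mir3593 have a 3p sequence only. The sequences with a shared seed are given because they show which precursors have the seed or the whole mature sequence in common. The seed is in capitals.
Mir132, rno-miR-132-3p: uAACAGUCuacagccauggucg
Mir212, rno-miR-212-3p: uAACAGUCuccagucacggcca
Mir138-1 and Mir138-2, rno-miR-138-5p: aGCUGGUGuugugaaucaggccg
Mir7a-1 and Mir7a-2, rno-miR-7a-5p: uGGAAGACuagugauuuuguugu
Mir3597-1, Mir3597-2 and Mir3597-3, rno-miR-9b-5p: uUCGGUUAucuagcuuuau
Mir3597-2 and Mir3597-3, rno-miR-9b-3p: aUACAGCUagauaaccaa

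Mir132 and Mir212, which arise from neighbouring hairpins and are known to respond to CREB in neurons, were listed differently. Mir212 appeared in both tables that involve group Familiar, and Mir132 in the table of Familiar against new-object only. Mir138-1 was listed in all 3 tables, whereas Mir138-2, which gives the same mature miR-138-5p, was absent from the table of Familiar against new-object. The same held for the pair that gives miR-7a-5p, with Mir7a-2 in all 3 tables and Mir7a-1 in both tables against Control. Mir3597-1 and Mir3597-2 were in all 3 tables and Mir3597-3 was missing from Familiar against Control. Copies of 1 mature sequence lie at different places in the genome, and the authors counted uniquely mapped reads, so reads that fit more than 1 copy were not counted.

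The table of new-object against Control listed 59 precursors, that of Familiar against Control 55 and that of Familiar against new-object 60. Over all genes these tables listed 17257, 17521 and 17461, so Familiar against Control was the longest table and held the fewest precursors. All 3 tables listed 41 of the 76 (53.9%). Another 16 (21.1%) were in exactly 2 tables and 19 (25.0%) in 1 table. Of the 17829 genes that are not microRNA precursors, 94.4% were in all 3 tables, 3.23% in 2 and 2.37% in 1. The precursors were thus outside the set common to all tables in 46.1% of cases and the other genes in 5.60%. These shares describe lists of names, and were not tested.

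**Figure D1:**
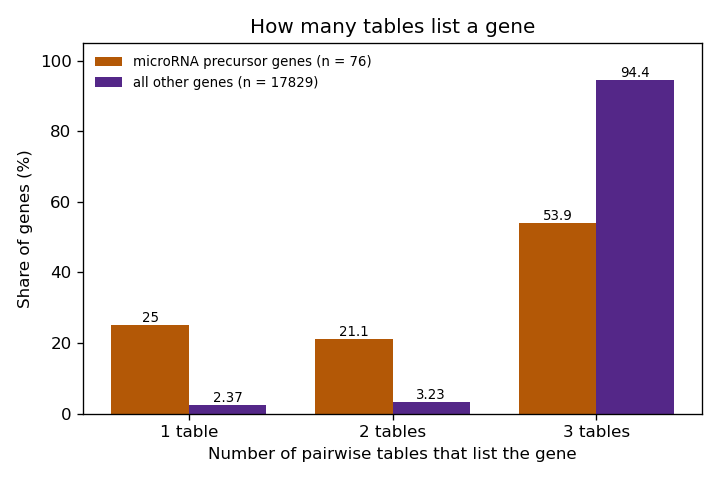
Share of genes in percent (vertical axis) by the number of pairwise tables that list the gene (horizontal axis), for 76 microRNA precursor genes and 17829 other genes. All 3 tables listed 53.9% of the precursors and 94.4% of the other genes.

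The 41 precursors present throughout included several that are well known in brain. Among these were Mir124-1 and Mir124-2, precursors of the neuronal miR-124, Mir128-2, Mir137, Mir138-1, Mir218-2, Mir219-1 of the oligodendrocyte lineage and Mir125b1. Mir145, a microRNA of smooth muscle and mural cells, and Mir150, known from lymphocytes, were also in every table. Others of the same kinds were not, since Mir132, Mir134 and Mir143 were in 1 table and Mir212, Mir138-2 and Mir7a-1 in 2. The mature sequences of 4 of them are shown as a reference for the reader, with the seed in capitals.
Mir128-2, rno-miR-128-3p: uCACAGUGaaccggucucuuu
Mir137, rno-miR-137-3p: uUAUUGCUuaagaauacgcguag
Mir218-2, rno-miR-218a-5p: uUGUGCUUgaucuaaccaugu
Mir145, rno-miR-145-5p: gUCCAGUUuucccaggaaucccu

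The 35 remaining precursors fell into 6 patterns, given here beside the number of all genes with the same pattern. New-object against Control alone listed 5 (of 101 genes), namely Mir103-1, Mir106b, Mir27b, Mir496 and rno-mir-29b-2. Familiar against Control alone listed 6 (of 208 genes), which were Mir134, Mir143, Mir3578, Mir3596c, Mir379 and Mir6321. Familiar against new-object alone listed 8 (of 133 genes), and these were Mir132, Mir139, Mir300, Mir329, Mir3579, Mir3596a, Mir374 and Mir99a. Both tables with the new-object group, but not Familiar against Control, held 8 precursors of 150 genes (Mir325, Mir344g, Mir3556b, Mir3586, Mir3597-3, Mir421, Mir568 and rno-mir-3556b-1). Both tables against Control, but not Familiar against new-object, held 5 of 135 (Mir138-2, Mir3593, Mir3596d, Mir412 and Mir7a-1). Both tables with group Familiar, but not new-object against Control, held 3 of 307 (Mir154, Mir212 and Mir3072).

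**Figure D2:**
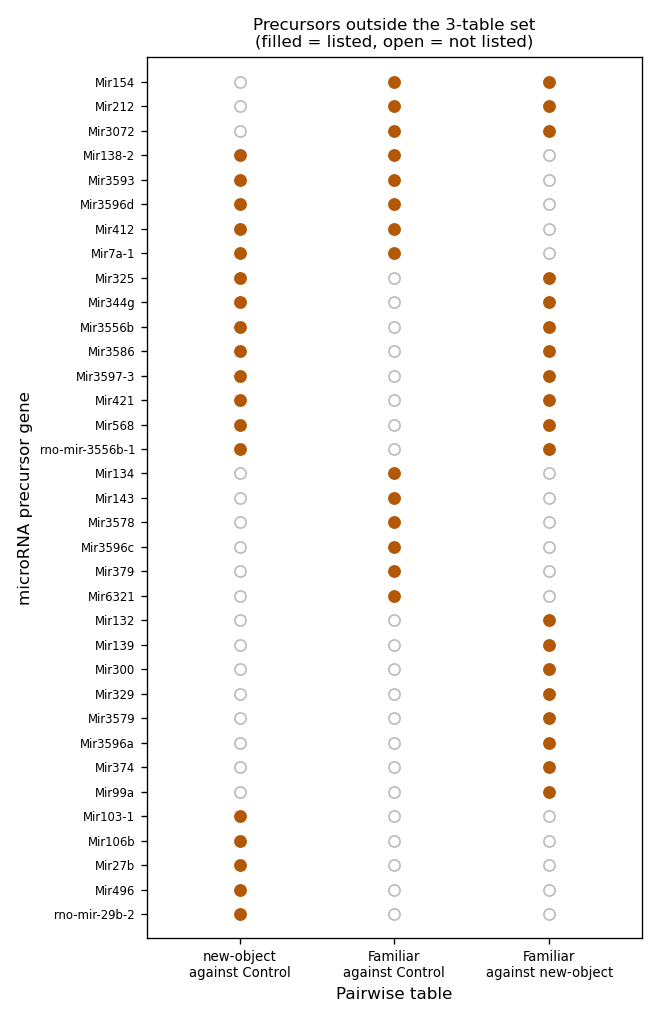
Each row is 1 of the 35 microRNA precursor genes that were not in all 3 tables (vertical axis), and each column a pairwise table (horizontal axis), where a filled circle marks a listed gene and an open circle one that is not listed. The upper 16 genes were in 2 tables and the lower 19 in 1.

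These patterns cannot be read as presence in one group of rats and absence from another. If a gene passed or failed once for each group, a gene in 2 tables would have passed in all 3 groups and would be in the third table as well. Yet 16 precursors, and 592 of all 17905 genes, were in exactly 2 tables. How the limit on counts was applied to each pair is not given in the sources used here. Mir134, a microRNA of dendrites, illustrates this limit: its listing for Familiar against Control alone gives neither its level nor a difference between those groups.

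Several of the genes with rat-specific symbols lie on the strand opposite a well-known microRNA. Of the 64 precursors with a RefSeq hairpin, 13 (20.3%) overlapped another hairpin on the other strand, against 74 of 419 hairpins (17.7%) in the whole RefSeq table. The partners of all 13 were not among the names, by symbol or synonym, in any of the 3 tables. The same was true of 385 of the 466 RefSeq miRNA genes (82.6%). That share is not limited to genes expressed in this tissue, so it is not a matched reference for the 13 partners, and the difference was not tested. Mir3597-1, Mir3597-2 and Mir3597-3 lie opposite Mir9-1, Mir9-2 and Mir9-3, the genes of the neural miR-9. Mir3596a, Mir3596c and Mir3596d lie opposite Mirlet7a-2, Mirlet7e and the gene of let-7f, Mirlet7f-1os. The others of the 13 were Mir2964 opposite Mir219-2, Mir3074 opposite Mir24-1, Mir3555 opposite Mir191, Mir3565 opposite Mir218-1, Mir3578 opposite Mir369, Mir3579 opposite Mir380 and Mir3595 opposite Mir376a. The search needed a hairpin sequence for the precursor and for its partner, so precursors outside the 13 may also lie opposite a microRNA gene.

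The sequences illustrate this overlap. For each of the 13, the whole mature sequence was found in the reverse complement of the partner's hairpin, from 18 to 22 bases without a mismatch. The 13 were chosen because the hairpins overlap, so a match within the overlap follows from that choice and is not separate evidence. The following lines set the mature sequence of the listed gene, with its seed in capitals, beside the reverse complement of the partner's mature sequence in lower case.
Mir3597-1, rno-miR-9b-5p: uUCGGUUAucuagcuuuau
Mir9-1, reverse complement of rno-miR-9a-3p: acuuucgguuaucuagcuuuau
Mir3596a, rno-miR-3596a: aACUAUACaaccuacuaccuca
Mirlet7a-2, reverse complement of rno-let-7a-5p: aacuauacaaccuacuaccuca
Mir3565, rno-miR-218b: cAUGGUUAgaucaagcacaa
Mir218-1, reverse complement of rno-miR-218a-5p: acaugguuagaucaagcacaa
Mir3578, rno-miR-3578: gCGAAUAUaacacggucgaucu
Mir369, reverse complement of rno-miR-369-5p: gcgaauauaacacggucgaucu

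The strand setting used for counting is not given in the sources used here. Without it, reads from a listed precursor cannot be told apart from reads of the microRNA gene opposite to it, so the listing of Mir3596a, for example, is not a measurement of transcription from its own strand. Of the 13, 7 were in all 3 tables (Mir2964, Mir3074, Mir3555, Mir3565, Mir3595, Mir3597-1 and Mir3597-2). Mir3596d and Mir3597-3 were in 2, and Mir3578, Mir3579, Mir3596a and Mir3596c in 1.

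A further 6 let-7 genes carry symbols that begin with Mirlet7 and are outside the name rule. Mirlet7a1, Mirlet7b, Mirlet7c-1, Mirlet7c-2 and Mirlet7d were listed in all 3 tables, and Mirlet7g for new-object against Control alone. Let-7 is among the most conserved microRNA families and is associated with differentiated cells. The 5p sequences share the seed GAGGUAG, shown here for comparison with the precursors that lie opposite the family.
Mirlet7a1, rno-let-7a-5p: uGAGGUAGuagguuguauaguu
Mirlet7g, rno-let-7g-5p: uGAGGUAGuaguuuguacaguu

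MicroRNA hairpins often lie close together and are cut from 1 primary transcript. With at most 10 kb between successive hairpins on GRCr8, let-7 genes outside the name rule included, 27 of the precursors formed 10 groups of at least 2. Hairpins on opposite strands do not share a transcript, and 7 of the groups held at least 2 precursors on 1 strand, 17 precursors in all. In 1 of these 7, Mir341 with Mir1188, the precursors of that strand were in the same tables, and in the other 6 they were not. Of all 76 precursors 53.9% were in all 3 tables and the rest were spread over several patterns, so precursors that are not neighbours would often differ too. Whether neighbours differ more or less often than these was not tested. Mir145 was in all 3 tables and its neighbour Mir143 in Familiar against Control alone. Mir23b was in all 3 and Mir27b, on the same strand, in new-object against Control alone. In the group of Mir134, Mir154, Mir412 and Mir496 on 1 strand, which belongs to the imprinted region that also holds Meg3 and Mir770, no precursor was in all 3 tables. In the same region Mir758 was in all 3, while its neighbours on the same strand, Mir379 and Mir329, were each in 1. On the X chromosome cluster inside the noncoding gene Ftx, Mir421 was in both tables with the new-object group and Mir374 in Familiar against new-object alone.

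A protein-coding gene on the same strand contained 19 of the 74 matched precursors. Of these 12 (63.2%) were in all 3 tables, as were 28 of the 55 others (50.9%). The 55 include precursors inside a protein-coding gene whose strand is opposite or not known, such as Mir2985 in Gria2. The 19 lay in 18 host genes, 14 of which were found by symbol and listed in every table. Examples with both gene and precursor in all 3 tables were Mir128-2 in Arpp21, a phosphoprotein of forebrain neurons, Mir218-2 in Slit3, a guidance cue of axons, Mir186 in Zranb2 and Mir3064 in Ddx5, a helicase that takes part in microRNA processing itself. The hosts Pde2a of Mir139, Mcm7 of Mir106b, Pank3 of Mir103-1, Rufy3 of Mir6321, Hnrnpk of Mir7a-1 and Slc12a3 of Mir138-2 were in every table although the precursor was not. Reads of a host transcript and of the hairpin within it are not separated by a list of names.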

How the data were processed

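RNA of 14 rats was sequenced by the authors, 5 in the new-object group, 5 in group Familiar and 4 in group Control, grouped here by the sample titles. Per the paper's methods and the submitters' processing notes, reads were aligned to Rnor_6.0 with TopHat and Bowtie2, uniquely mapped reads were counted with HTSeq, and the authors compared pairs of groups with edgeR, with and without RUVSeq. The paper's methods exclude genes whose mean count was under 1 in any group from what followed, and how this was applied to each table is not given in the sources used here. The versions of these tools are not given in the sources used here. The deposited tables hold linear fold changes and unadjusted p values of those tests, which were not used, and 0 columns of values per sample. The planned count tests were therefore not run, and the tables do not give the depth per rat. Raw reads, which the paper says were deposited, were not used here. Gene names were read from the tables and matched by symbol, then by a single synonym, to RefSeq miRNA genes of GRCr8. That assembly differs from the authors' build, so its positions served only for strand, overlap and neighbourhood (10 kb) and are not printed. Genes named in the text are all 35 precursors outside the common set, brain families, precursors that share a seed, and others chosen after their listing was seen. The members and lists were chosen with earlier results of these data known. Python 3.11.15, pandas 2.3.3, numpy 2.4.6 and matplotlib 3.10.9 were used.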

Additional observations from a re-analysis of the deposited data

How the results depend on the processing

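The counts of precursors were repeated with a wider name pattern, which added 6 let-7 genes, and with distinct symbols in place of identifiers. With the wider pattern 82 genes were found in place of 76, with 65, 60 and 65 in the tables of new-object against Control, Familiar against Control and Familiar against new-object, and 46 in all 3. Distinct symbols had to give the same numbers as identifiers, since each of the 76 genes has its own symbol. No count moved by more than 1.5 times under either alternative, but adding 6 genes could not have moved any of them that far. No paired analysis was possible because the tables hold no values per rat. For the same reason another normalisation, a filter on low counts and leaving out each replicate were not run. Matching to RefSeq by symbol and synonym can miss a gene under another name, which touches the counts of hosts and of partners on the opposite strand.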
